A study of Ovis aries with 4 samples.

Results

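The genes described here were counted in nuclei and never in whole cells. They are the genes with at least 1000 unique molecular identifiers (UMIs, each marking a single captured RNA molecule) summed over all barcodes of both nuclei libraries and 0 UMIs over all barcodes of both whole cells libraries, matched by gene identifier. Of 26478 listed genes, 8640 nuclear-encoded genes reached the nuclei minimum, 146 of these had 0 UMIs in whole cells, and 144 are described after the rule left out 2. Of the 144 genes, 104 had a symbol in the gene lists and 40 had only an Ensembl identifier.

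Droplet-based sequencing was run on frozen striatum, a deep forebrain region that controls movement and reward, of sheep aged 5 years. Per the labels, 2 libraries held whole cells freed with the enzyme papain and 2 held nuclei freed by douncing in a buffer with detergent. Replicate 1 of each kind pooled sheep 1 and 2 and replicate 2 pooled sheep 3 and 4, so no value belongs to a single animal. The protocol text names animals 2 and 3 for the second pool of cells, where the title says sheep 3 and 4; the titles were followed. No treatment or genotype is given for any group.

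A nucleus holds RNA that has just been transcribed and is still being spliced, so much of it carries introns, while the RNA of a whole cell is mostly mature message in the cytoplasm. The striatum is made up mainly of medium spiny neurons, which send inhibitory signals out of the region, with a smaller number of interneurons that act locally, and of glia: oligodendrocytes that form myelin, their precursors, astrocytes and microglia, the resident immune cells.

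The whole cells libraries held 125974 UMIs (replicate 1) and 2512837 UMIs (replicate 2) outside the mitochondrial genes, against 69924470 and 50705635 in the nuclei libraries. Between any pair of libraries, 2 to 87 barcodes were shared. Per the file headers, the whole cells were counted with Cell Ranger 6.0.1 and the nuclei with Cell Ranger 7.0.0. The kind of library, the version of the program and whether introns were counted cannot be told apart, and the contrast of nuclei with whole cells chose the genes, so it is given as a description with no test.

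At the share of UMIs that they had in nuclei, the 144 genes would have had between 21.9 and 625 UMIs in the whole cells libraries together, with a median of 43.7. Over all 8640 genes the median of the observed whole cells UMIs was 0.473 times the number that the nuclei share gives. This ratio fell with depth, from 0.963 at 1000 to under 2000 nuclei UMIs, where 72 of the 144 genes lay, and 0.697 at 2000 to under 4000 to 0.256 at 16000 to under 32000. Taking 3 UMIs as the limit that a count of 0 allows over both whole cells libraries, the level as a share of UMIs was at least 7.31-fold to at least 208-fold higher in nuclei, with a median bound of 14.6. The 0 counts that give these bounds also chose the genes, so the bounds describe the set and are not an error limit for it. A share of 1.69% of the 8640 genes had 0 UMIs in whole cells, falling from 3.74% of the 1927 genes with 1000 to under 2000 nuclei UMIs to 0.891% of the 1347 genes with 8000 to under 16000.

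Just inside the nuclei minimum stood SCNN1B, a subunit of the epithelial sodium channel, with 699 and 303 UMIs in nuclei replicates 1 and 2, CYP4X1, a cytochrome P450, with 499 and 503, and ENDOV, an endonuclease, with 552 and 461. Just outside it stood TMPRSS11D with 303 and 688 UMIs, ADAMTS12 with 505 and 484 and PDZD9 with 564 and 415, also with 0 UMIs in whole cells. On the other edge of the rule, LRMDA had 43864 nuclei UMIs, SLC25A21 had 17856 and CLSTN2 had 17653, each with 1 UMI in whole cells. There were 124 genes with exactly 1 whole cells UMI at the same nuclei minimum, so the edge of the set is not a gap.

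The nuclei UMIs of the 144 genes ran from 1002 to 28581, with a median of 1999. NR6A1, an orphan nuclear receptor known from germ cells, had the most, with 16730 UMIs in nuclei replicate 1 and 11851 in replicate 2. CCDC152, a coiled-coil protein gene, had 12962 and 14973, and VOPP1 had 11802 and 10166. These 3 genes stood above the next named gene, SHISA6, an auxiliary protein of AMPA-type glutamate receptors, with 5593 and 9760. The unnamed genes with the most UMIs were ENSOARG00020008894, with 6989 and 11846, and ENSOARG00020011452, with 5468 and 10115.

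**Figure D1:**
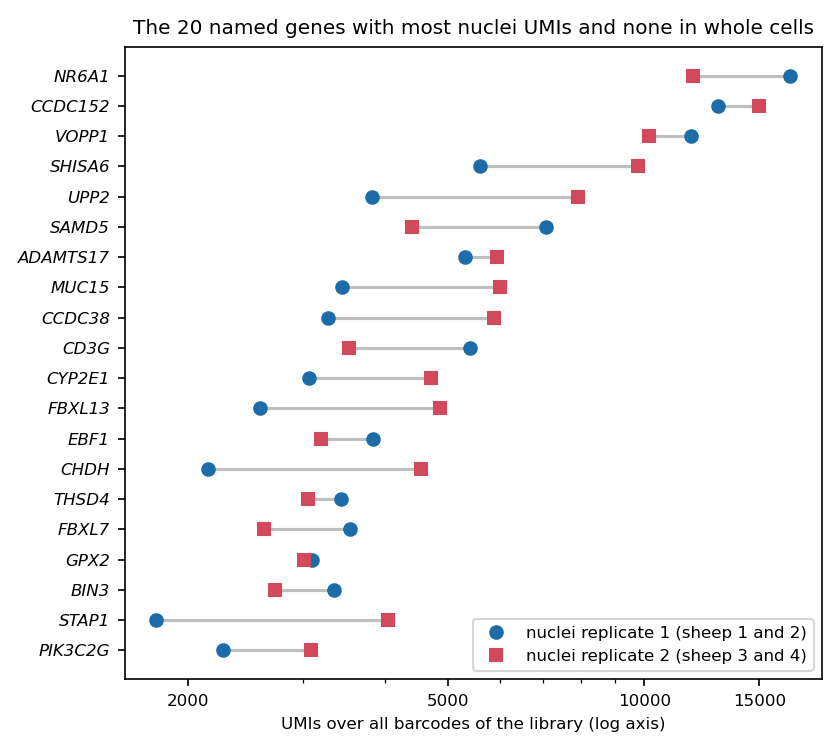
UMIs summed over all barcodes of a nuclei library (log axis) for the 20 named genes with the most nuclei UMIs, with circles for replicate 1 and squares for replicate 2; all 20 had 0 UMIs in both whole cells libraries. NR6A1, CCDC152 and VOPP1 lie above 10000 UMIs in both libraries, and which replicate is higher differs from gene to gene.

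Unnamed genes were more frequent in the set than named ones. Of 913 unnamed genes at the nuclei minimum, 40 (4.38%) were in the set, against 104 of 7727 named genes (1.35%). Of the 104 named genes, 95 matched a single RefSeq gene of assembly ARS-UI_Ramb_v3.0 by symbol, and all 95 were protein-coding there. So were 7419 of the 7420 matched genes at the nuclei minimum, and this is no trait of the set. Some gene families had no member: 0 of 151 zinc finger genes, 0 of 34 glutamate and GABA receptor genes, 0 of 36 cadherin, protocadherin, contactin, neurexin and neuroligin genes, 0 of 64 FAM genes and 0 of 51 ribosomal protein genes. Families with members were the solute carriers (6 of 155), the coiled-coil CCDC genes (4 of 40), collagens and ADAM proteases (3 of 36), nuclear receptors (2 of 23) and TMEM genes (2 of 91). Potassium channels had 1 of 36, and calcium and sodium channels with symbols starting in CACN or SCN had 1 of 25. Families were read from the start of the symbol, so TRPV6, a calcium channel of the set, was not counted among these channels. With 1.35% of named genes in the set, families of this size would hold few members or none, so these counts are a description and not a result about any family.

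The solute carriers of the set carry small molecules across membranes and had different profiles. SLC16A4, of the monocarboxylate transporter family, had 2147 and 2571 UMIs in the nuclei replicates and SLC10A1, the bile acid carrier of liver, had 987 and 1674. SLC29A3, a nucleoside transporter of lysosomes, had 540 and 564. The second nuclear receptor was ESRRB, an orphan receptor related to the estrogen receptors, with 913 and 812. Of 3 small RNA genes at the nuclei minimum, 1 was in the set, named Metazoa_SRP after the RNA of the signal recognition particle, with 510 and 506 UMIs. This RNA has many near-identical copies in a genome, so its count is uncertain.

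To place the genes in cell types, nuclei were clustered without using any of the 144 genes, and clusters were named from marker genes. This gave 6 classes with at least 50 nuclei in each library: oligodendrocyte-like (3721 and 3785 nuclei in replicates 1 and 2), medium spiny neuron-like (1305 and 1277), microglia-like (749 and 754), astrocyte-like (691 and 557), oligodendrocyte precursor-like (575 and 686) and interneuron-like (120 and 137), named below without the suffix. In the microglia cluster 10 microglia markers were raised, among them CSF1R, P2RY12 and CX3CR1, and in the oligodendrocyte clusters 10 of theirs, among them MOG and MAG. Counts were summed per class and library and given as CPM, the count per 1e6 UMIs of that class and library. The genes made up between 0.328% and 0.793% of the UMIs of a class in a library, lowest in medium spiny neurons of replicate 1 and highest in microglia of replicate 2. Depth differed widely between classes: medium spiny neurons had a median of 29219 and 16341 UMIs per nucleus and microglia 1657 and 1390.

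All 144 genes passed the filter on low counts, and 142 differed between the classes by edgeR's quasi-likelihood test with Benjamini-Hochberg adjustment at 0.05, as did 90.5% of the 12668 genes tested and 93.9% of those with at least 1000 nuclei UMIs. A difference between classes was thus common among all genes. ENSOARG00020014133 was among those without one (adjusted p = 0.097). The library was a block in the test, so these p-values measure how much class differences vary between the 2 pooled libraries. They do not measure the spread between animals.

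Against the mean of the other classes, 75 of the 144 genes were higher in medium spiny neurons, where 34.2% of all tested genes were higher, and 36 were lower, against 30.5%. In microglia 19 were higher, against 28.7% of all genes, and 79 were lower, against 33.1%. In interneurons 56 were higher (background 27.2%) and 28 lower (21.7%), and in oligodendrocyte precursors 51 were higher (25.2%) and 26 lower (17.1%). Astrocytes had 47 higher (25.1%) and 37 lower (19.7%), and oligodendrocytes 55 higher (31.5%) and 52 lower (26.6%). All of these genes had at least 1000 nuclei UMIs, so the nearer background is the 8640 genes at that minimum. In medium spiny neurons 52.1% of the set was higher, against 41.2% of those genes, and 25.0% lower, against 30.6%. This class held the most UMIs, 40902541 and 25584332 in replicates 1 and 2. A gene could thus reach the minimum through it alone, in the set as in the background. In microglia 13.2% was higher, against 28.2%, and 54.9% lower, against 40.4%. Interneurons had 38.9% higher, against 29.9%, and 19.4% lower, against 27.4%. In oligodendrocyte precursors 35.4% was higher, against 28.3%, and 18.1% lower, against 21.5%, so the share of lower genes stood above that of all tested genes and below that of the genes at the minimum. Astrocytes had 32.6% higher, against 24.0%, while their 25.7% lower was near the background of 26.8%. In oligodendrocytes the 38.2% higher was near the background of 37.1%, and 36.1% was lower, against 29.3%.

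At least 4-fold above the mean of the other classes in both libraries stood 38 of the 144 genes in 1 class (26.4%), as did 18.4% of the 8640 genes at the nuclei minimum. Medium spiny neurons had 12 such genes (background 3.58%), microglia 10 (4.86%), interneurons 8 (2.31%), oligodendrocytes 4 (3.23%), oligodendrocyte precursors 2 (1.56%) and astrocytes 2 (2.89%).

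**Figure D2:**
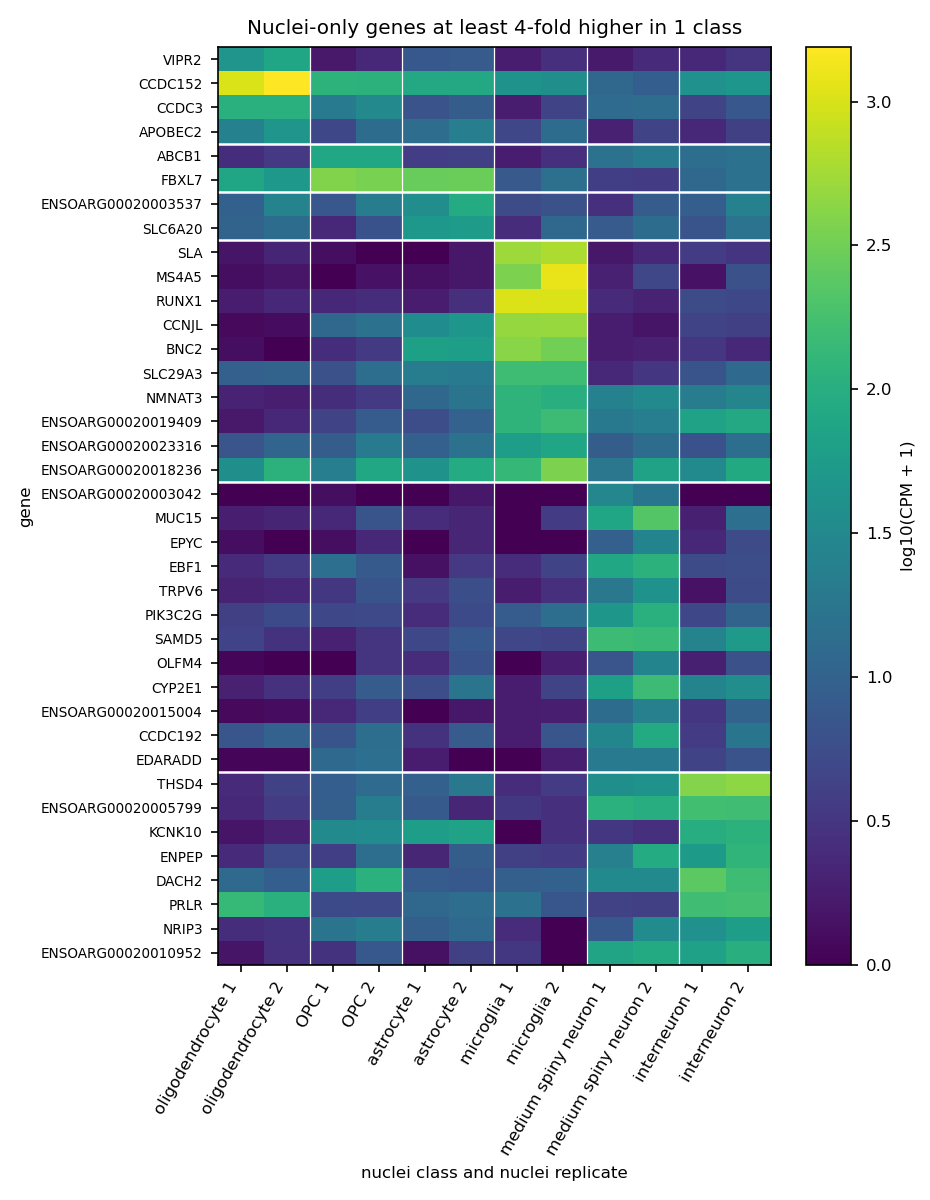
Level as log10(CPM + 1), shown by colour, of the 38 genes that were at least 4-fold higher in 1 class than in the mean of the other classes in both libraries (rows, grouped by that class), in each class and nuclei replicate (columns; OPC, oligodendrocyte precursor). The 10 microglia genes and 12 medium spiny neuron genes form the largest blocks, and MS4A5 and MUC15 are higher in replicate 2 within theirs.

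The sharpest profiles were those of microglia. RUNX1, a transcription factor of blood cell development, had 1064 and 1008 CPM in microglia of replicates 1 and 2 and at most 4.41 CPM in any other class. Its log2 difference from the mean of the other classes was 8.92 ± 0.12 (SE; edgeR, adjusted p = 2.1e-15). RUNX1 UMIs were found in 75.7% and 69.5% of microglia nuclei and in 0.188% and 0.238% of oligodendrocyte nuclei, whose median depths were 2182 and 1580 UMIs. SLA, an adaptor protein of blood cell signalling, had 526 and 621 CPM in microglia and at most 2.64 elsewhere, with a log2 difference of 9.40 ± 0.16 (SE; edgeR, adjusted p = 7.2e-15). CCNJL, a cyclin-like gene, had 479 and 494 CPM in microglia but also 34.5 and 46.9 in astrocytes.

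MS4A5, of a family of membrane proteins that span the membrane several times, differed between the libraries within microglia, with 363 CPM in replicate 1 and 1205 in replicate 2. In all other classes it stood at 5.14 CPM or less. Its log2 difference was 9.48 ± 0.14 (SE; edgeR, adjusted p = 2.1e-15). The solute carrier SLC29A3 had 156 CPM in microglia of both libraries and between 1.34 and 20.8 in the other classes.

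In medium spiny neurons, MUC15, a membrane mucin, had 76.5 and 214 CPM and at most 13.7 in any other class. The log2 difference was 6.43 ± 0.21 (SE; edgeR, adjusted p = 2.9e-12). EPYC, a proteoglycan known from cartilage, was low even there, with 8.58 and 26.6 CPM. TRPV6, a calcium channel of epithelia, had 18.1 and 42.9 CPM in medium spiny neurons, and CYP2E1, a cytochrome P450 abundant in liver, had 64.4 and 151. SAMD5 was similar in both libraries, with 154 and 139 CPM, and PIK3C2G, a lipid kinase, had 47.7 and 104. In each of these 6 genes the lower of the medium spiny neuron values exceeded every value of the other classes.

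EBF1, a transcription factor known from the development of B cells and of striatal neurons, differed between clusters of the medium spiny neurons. Over the class it had 81.6 and 112 CPM, with a log2 difference of 5.33 ± 0.19 (SE; edgeR, adjusted p = 6.6e-12). In cluster 5, where TAC1, the precursor of substance P, stood at 288 and 184 CPM and the dopamine receptor gene DRD2 at 1.06 and 2.75, EBF1 had 167 and 203 CPM. In cluster 8, where DRD2 stood at 34.3 and 53.7 CPM and TAC1 at 12.5 and 12.1, EBF1 had 0.962 and 1.92 CPM. Cluster 1, the remaining cluster of the class, had 142 and 136 nuclei and few UMIs per nucleus. It held both TAC1, at 186 and 167 CPM, and DRD2, at 18.4 and 13.1, and EBF1 stood there at 78.7 and 91.9. The interneuron markers SST, NPY and NOS1 were also found there, at 78.7 and 72.2, 47.2 and 26.2, and 26.2 and 82.0 CPM. In clusters 5 and 8 they stood at 9.25 to 10.4, 2.69 to 5.86 and 0.818 to 1.37 CPM. The part of free or mixed RNA in cluster 1 was not tested. SAMD5 and MUC15 did not have the gap of EBF1 between clusters 5 and 8. SAMD5 had 134 and 124 CPM in cluster 5 and 172 and 155 in cluster 8. MUC15 had 75.7 and 229 in cluster 5 and 78.0 and 197 in cluster 8. TAC1 and DRD2 mark the projection neurons of the direct and the indirect pathway out of the striatum. This comparison of clusters was chosen after the values were seen and has no test.

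Of the interneuron genes, THSD4, a secreted protein of the extracellular matrix, stood highest, with 394 and 446 CPM, against 37.7 and 42.6 in medium spiny neurons and 1.37 to 18.0 in the glial classes. Its log2 difference was 5.82 ± 0.13 (SE; edgeR, adjusted p = 2.2e-13). Within the class it was concentrated in cluster 12, with 1687 and 1539 CPM, against 87.3 and 97.7 in cluster 13. Outside the class, THSD4 had 249 and 175 CPM in cluster 2, which stayed unnamed, and 89.2 and 210 in cluster 1 of the medium spiny neurons. Cluster 12 had 22 and 30 nuclei and held the somatostatin gene SST at 7248 and 5100 CPM, with NPY and NOS1, and SST stood at 45.8 and 18.1 CPM in cluster 13. DACH2, a transcriptional cofactor, had the opposite order, with 34.4 and 46.1 CPM in cluster 12 and 291 and 194 in cluster 13. KCNK10, a background potassium channel, had 94.8 and 110 CPM in interneurons and 59.2 and 68.0 in astrocytes, and ENPEP, an aminopeptidase, had 53.3 and 119 in interneurons and 23.4 and 91.9 in medium spiny neurons.

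KCNK10 was also high in cluster 7, which had 475 and 256 nuclei and stayed unnamed, with ADARB2 among its leading genes. It had 166 and 228 CPM there, and ARHGAP28, a GTPase-activating protein gene, had 325 and 363 CPM, against at most 42.0 CPM in any of the 6 classes. Both, with 1 unnamed gene, were at least 4-fold above the mean of the 6 classes in cluster 7 in both libraries. The other unnamed cluster with at least 50 nuclei per library had 0 such genes. The share of all genes at the nuclei minimum that reach this level in these clusters was not counted. The numbers are therefore no result about the set.

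In oligodendrocytes, CCDC152 had 1025 and 1546 CPM, against 114 and 112 in their precursors and 8.01 to 83.5 in the remaining classes. The log2 difference was 5.03 ± 0.12 (SE; edgeR, adjusted p = 3.8e-13). VIPR2, a receptor for the neuropeptides VIP and PACAP, had 44.7 and 74.5 CPM in oligodendrocytes and at most 7.22 elsewhere. CCDC3, a secreted protein gene, had 104 CPM in both libraries, and APOBEC2, of a family of cytidine deaminases, had 24.4 and 45.1, with 12.9 and 22.3 in astrocytes.

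Oligodendrocyte precursors were the highest class for ABCB1, the drug efflux pump P-glycoprotein, with 77.4 and 80.1 CPM, against 14.3 and 19.0 in medium spiny neurons, 13.2 and 15.0 in interneurons and 0.753 to 3.01 in microglia, astrocytes and oligodendrocytes. The log2 difference was 4.32 ± 0.15 (SE; edgeR, adjusted p = 1.1e-11). ABCB1 is best known from the endothelium of brain vessels; no class named endothelial was formed here. The listed endothelial markers had 0 to 806 UMIs in a nuclei library, and cluster 14, with 41 and 27 nuclei, raised 4 of them and stayed unnamed; the part of such nuclei in the ABCB1 counts was not tested. FBXL7, an F-box protein of ubiquitin ligases, had 379 and 355 CPM in precursors and 283 and 298 in astrocytes. SLC6A20, a transporter of proline and other imino acids, was the named gene of the astrocytes, with 48.6 and 57.1 CPM and at most 15.4 elsewhere.

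Other genes of the set were spread across the classes. The highest class mean over the lowest, each with 1 CPM added, was at most 2 for 10 of the 144 genes (6.94%), against 18.5% of the genes at the nuclei minimum, and had a median of 8.22, against 3.56. ENSOARG00020008894 had the flattest profile, with a ratio of 1.64: it stood between 77.1 and 145 CPM in the 6 classes of replicate 1 and between 195 and 303 in those of replicate 2. GNAT2, the transducin of cone photoreceptors, had 0.963 to 8.37 CPM in replicate 1 and 10.8 to 24.7 in replicate 2. CD3G, a subunit of the T cell receptor complex, had 48.7 to 120 CPM over all classes and libraries, and 5406 and 3524 UMIs in all. The lymphocyte markers CD3E, CD2, CD247 and THEMIS had 14 to 214 UMIs in a nuclei library, and their part in the CD3G counts was not tested. NR6A1 was found in every class, with 69.4 and 92.0 CPM in astrocytes and 315 and 345 in oligodendrocyte precursors.

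The set also differed between the pools of sheep. Of the 144 genes, 59 (41.0%) had a CPM at least 2-fold higher in nuclei replicate 2, the pool of sheep 3 and 4, than in replicate 1, the pool of sheep 1 and 2. Among all 8640 genes at the nuclei minimum the share was 2.40%. In the other direction 1 gene of the set was at least 2-fold higher in replicate 1, ENSOARG00020003042, with 1277 and 454 UMIs, against 0.394% of all genes. The median ratio of replicate 2 to replicate 1 was 1.62 over the set and 1.06 over all genes. With 1 library per pool there is no test of this difference, and the animals, the library and its depth cannot be told apart. The rule's minimum is on the sum of these same counts, so a gene could pass it through 1 library alone. That holds for the 8640 genes too, but the set lay nearer the minimum. At 1000 to under 2000 nuclei UMIs stood 72 of the 144 genes, against 1927 of the 8640.

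**Figure D3:**
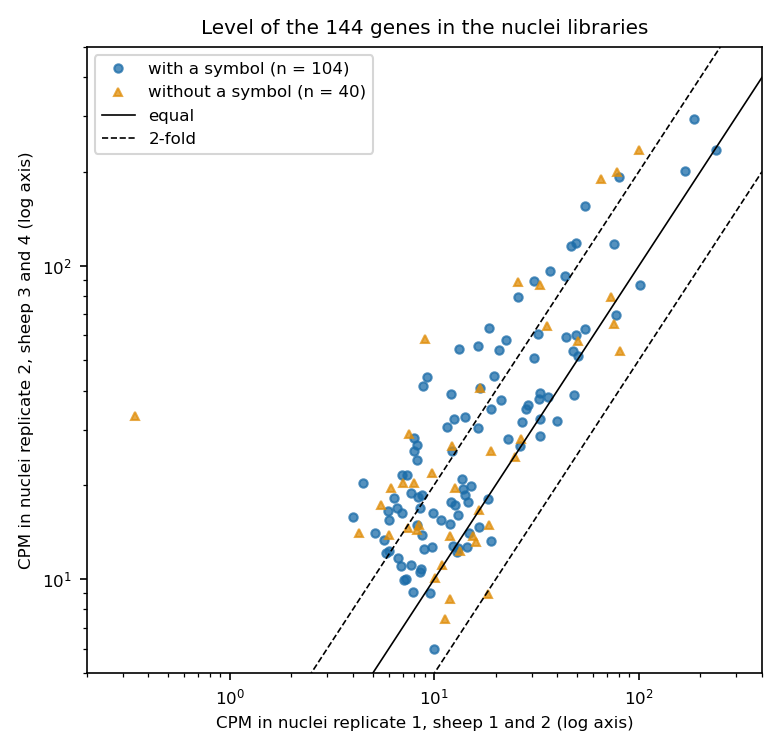
CPM of each of the 144 genes in nuclei replicate 1 (x axis) and replicate 2 (y axis), both log axes, for genes with a symbol (circles) and without one (triangles), with lines for equal and 2-fold different levels. Most points lie above the line of equal levels, and 59 lie on or above the upper 2-fold line.

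MS4A5 had the largest ratio of the named genes, with 645 and 2236 UMIs and a ratio of 4.78 (exact binomial 95% interval 4.38 to 5.23, counting error only). GNAT2 had 314 and 1028 (ratio 4.51), and HPX, the heme-binding plasma protein hemopexin, had 920 and 2756 (ratio 4.13). Larger still were 2 unnamed genes: ENSOARG00020002929, with 631 and 2953 UMIs, and ENSOARG00020013132, with 24 and 1684, of which nearly all came from 1 library. At the other end, SCNN1B had a ratio of 0.598, the transporter SLC12A8 0.701, HPSE2, of the heparanase family, 0.797 and CA1, the carbonic anhydrase of red blood cells, 0.803.

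The difference was present inside the classes. In medium spiny neurons 67 of the 144 genes with at least 20 UMIs there (46.5%) were at least 2-fold higher in replicate 2, against 4.07% of all genes. The share was 46.0% in oligodendrocyte precursors, 42.6% in oligodendrocytes, 33.3% in interneurons, 29.9% in microglia and 24.8% in astrocytes, against 2.78% to 4.75% of all genes. Of the 59 genes that were at least 2-fold higher over all nuclei, 50 were higher in replicate 2 in all 6 classes. The 59 were chosen on the same nuclei, so this count follows in part from that choice. Among the 59, HPX had 37.6 CPM in replicate 1 and 144 in replicate 2 in oligodendrocytes, 18.0 and 61.3 in astrocytes and 5.94 and 28.5 in medium spiny neurons. Medium spiny neurons made up 16.3% and 16.5% of the nuclei of replicates 1 and 2, oligodendrocytes 46.5% and 49.0%, microglia 9.36% and 9.77%, astrocytes 8.63% and 7.22%, oligodendrocyte precursors 7.18% and 8.89% and interneurons 1.5% and 1.8%. Outside these 6 classes the libraries differed more: an excitatory neuron-like cluster had 169 nuclei in replicate 1 and 1 in replicate 2, cluster 7 had 475 and 256, and cluster 10, also unnamed, had 2 and 63.

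The share of genes at least 2-fold higher in replicate 2 fell with the number of UMIs a gene had in whole cells. It was 41.0% at 0 UMIs, 16.1% of the 124 genes with 1 UMI, 8.77% of the 456 genes with 2 to 5, 3.09% of the 1425 genes with 6 to 20, 0.836% of the 3230 genes with 21 to 100 and 0.460% of the 3259 genes with more. These groups of genes were chosen after the values were seen. Of the 207 genes that were at least 2-fold higher in replicate 2, 28.5% belonged to the 144.

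**Figure D4:**
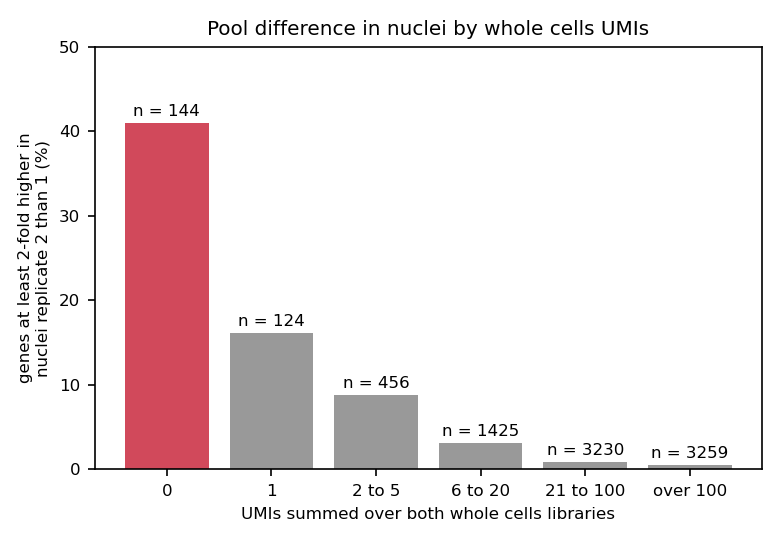
Percent of genes (y axis, from 0) with a CPM at least 2-fold higher in nuclei replicate 2 than in replicate 1, by UMIs summed over both whole cells libraries (x axis), for genes with at least 1000 nuclei UMIs; the number of genes is above each bar. The bar at 0 UMIs is the set described here, at 41.0%, and the bars fall to 0.460% at over 100 UMIs.

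The position of the genes relative to others was read from RefSeq, for names and neighbours only, since the build behind the counts is not given in the sources used here. Of the 95 matched genes, 30 (31.6%) overlapped another protein-coding gene, against 21.2% of the 7325 other matched genes, and 6 (6.32%) lay wholly inside one, against 1.19%. With lncRNA genes included, 50 (52.6%) overlapped another gene, against 31.8%. The strand is not given in the table and the strand setting of the counting is not stated, so reads of overlapping genes cannot be told apart here.

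MUC15 lay inside ANO3, a member of the anoctamin family and itself a gene of medium spiny neurons in these data, with 1707 and 1380 CPM in that class and 31.9 to 61.0 in the others. Across the 12 values of class and library, log2(CPM + 1) of the genes had a Pearson r of 0.89; the points share libraries, depth and classes, and the value is a description. The pools differed between them: in medium spiny neurons MUC15 had 76.5 CPM in replicate 1 and 214 in replicate 2, while ANO3 had 1707 and 1380. SLA lay inside TG, the thyroglobulin gene, which had 84.4 and 186 CPM in microglia and at most 7.49 in the other classes (r = 0.95, n = 12). ANGPTL2, a secreted angiopoietin-like protein gene, lay inside RALGPS1, and both were highest in oligodendrocytes, at 40.8 and 91.3 CPM for ANGPTL2 and 1084 and 963 for RALGPS1 (r = 0.81, n = 12). HTR2B, a serotonin receptor, lay inside PSMD1, with an r of 0.37 (n = 12).

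Among genes that overlapped in part, UPP2, an enzyme of uridine breakdown, and CCDC148 had an r of 0.90. UPP2 had 130 and 232 CPM in interneurons and 3.77 and 8.74 in microglia, and CCDC148 had 396 and 262 in interneurons and 6.78 and 21.8 in microglia. UPP2 was 2.85-fold higher in replicate 2 over all nuclei, with 51.5 and 179 CPM in medium spiny neurons, where CCDC148 had 270 and 218. CHDH, choline dehydrogenase, and the calcium channel gene CACNA1D also had an r of 0.90, with 52.0 and 133 CPM for CHDH and 926 and 860 for CACNA1D in interneurons. CCDC152 adjoined GHR, the growth hormone receptor gene, without overlap in RefSeq. In oligodendrocytes GHR had 988 and 1641 CPM beside the 1025 and 1546 of CCDC152, and their r was 0.97. In whole cells GHR had 25 UMIs and CCDC152 had 0.

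**Figure D5:**
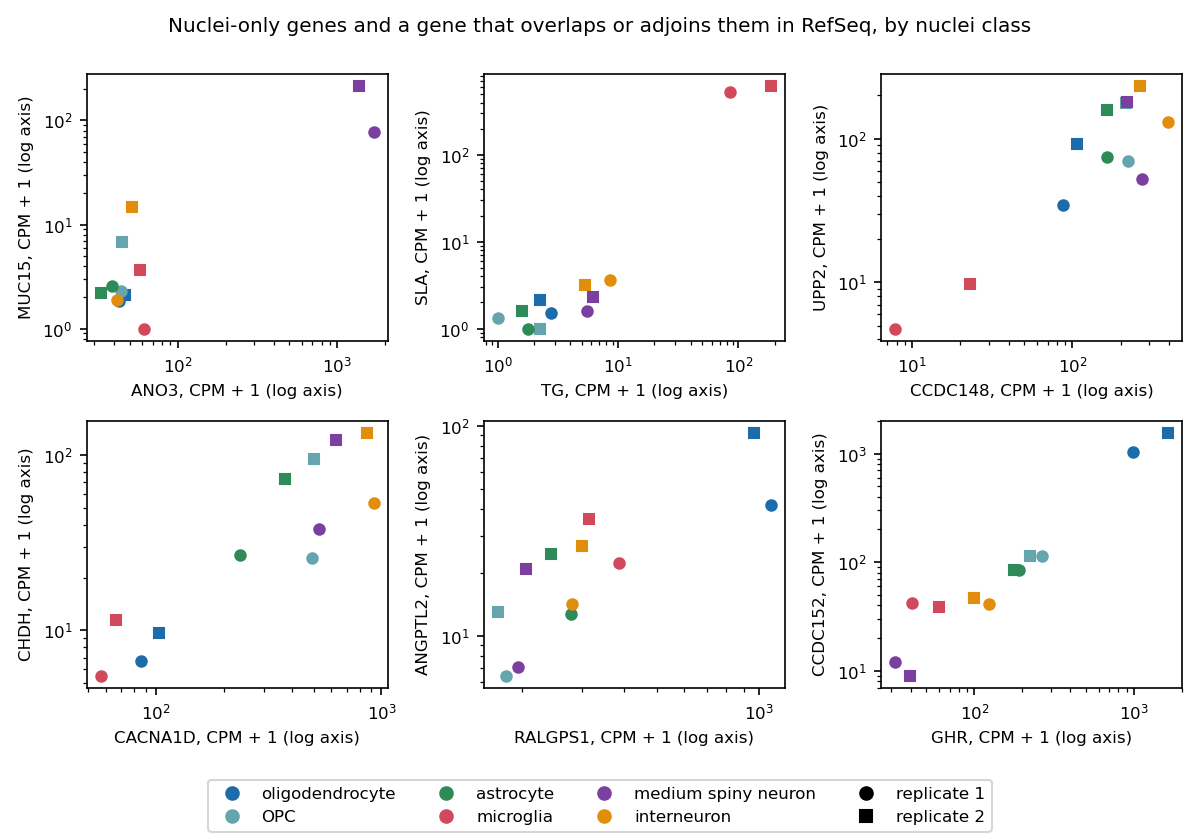
Level of 6 genes of the set (y axes) against that of a gene that overlaps them in RefSeq or, for CCDC152 and GHR, adjoins them (x axes), as CPM + 1 on log axes, with 1 point per nuclei class (colour) and replicate (circle, 1; square, 2). Squares lie above circles of the same colour for UPP2, CHDH and ANGPTL2, while CCDC148, CACNA1D and RALGPS1 shift less than they do between replicates in medium spiny neurons.

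Over all pairs in which the other gene had at least 1000 nuclei UMIs, r was over 0.8 in 2 of 4 pairs with the gene inside the other, 3 of 14 that overlapped in part and 8 of 77 that adjoined each other. The medians were 0.66, 0.49 and 0.27. The pairs named above were chosen after their values were seen.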

How the data were processed

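The authors deposited 1 matrix of raw counts (UMIs per gene and barcode) per library. Per the file headers the matrices came from Cell Ranger 6.0.1 (whole cells) and 7.0.0 (nuclei), and the submitters' processing notes list Cell Ranger 2.1.1 and 6.0.1 and STAR 2.7.2a. The build, annotation, strand setting and intron counting are not given in the sources used here. Symbols came from the gene lists. They differ between the lists of whole cells and nuclei for 871 identifiers, of which 1 is in the set, with a symbol in the list of whole cells alone. The genes, lists and tests were chosen with earlier results of these data known. The 2 genes that the rule leaves out are not reported here.

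UMIs outside the 35 mitochondrial genes were summed per library and given as CPM, the count per 1e6 UMIs. Kept nuclei had 200 or more genes and no more than 5% mitochondrial UMIs. Scrublet (expected rate 0.08) called 390 of 8700 nuclei in replicate 1 and 0 of 8388 in replicate 2, so it did not work there. Instead, the 8% of nuclei with the highest scores were removed from each library. Nuclei were clustered with scanpy 1.11.5 (10000 UMIs, log scale, 2000 variable genes without the 144, 30 components, 15 neighbours, Leiden resolution 0.5). A marker counted as raised at 2 times the mean CPM of the other clusters and in 2% of nuclei, and a cluster was named from at least 3 raised markers. Clusters with many markers of another class stayed unnamed. These naming rules were set after seeing the clusters. Free RNA was not removed.

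Class sums were tested with edgeR 4.0.16 (R 4.3.3; TMM, filterByExpr, quasi-likelihood F test, Benjamini-Hochberg adjustment over all genes), each class against the mean of the others, with the library as a block, because the class sums of 1 library come from the same pool. The script was checked on simulated counts. The 4-fold rule also asked for 20 UMIs in the class in each library. Ratios between pools have exact binomial 95% intervals. Alternatives were DESeq2 1.42.0, other scalings, filters, clusterings and doublet rules, other thresholds and leaving out a library. Named genes were the 20 with most nuclei UMIs, up to 4 per class by fold, the 4 with the largest and the 4 with the smallest ratio between pools, and those at the thresholds.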

Additional observations from a re-analysis of the deposited data

How the results depend on the processing

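The number of genes in the set depends on its thresholds: it was 268 at a nuclei minimum of 500 UMIs, 72 at 2000 and 268 with at most 1 UMI allowed in whole cells. Without 1 nuclei library it was 68 to 80, and without 1 whole cells library 161 to 1864; the 1864 rest on whole cells replicate 1 alone, which held 125974 UMIs. With nuclei filtered by genes and mitochondrial UMIs it was 144.

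Without the replicate block for library and pool, 109 of the genes differed between classes, against 142 with it, and 79.9% of all genes. With every other alternative the number was 136 (DESeq2) to 144 (no filter), where 87.6% and 60.8% of all genes tested differed, against 90.5% in the test reported first. With doublets kept no interneuron class was formed, and the test ran over the remaining classes. The number at least 4-fold higher in a class was 35 to 40 under other clusterings, and 43 without either nuclei replicate. The number at least 2-fold different between pools was 51 with TMM-scaled CPM, 56 with classes weighted equally and 60 in the main count. SCNN1B, the named gene with the lowest ratio, was level between pools with classes weighted equally (log2 ratio -0.03). No class test was run without a library, since 1 value per class leaves no spread to estimate. Depth limits the low genes: in microglia of replicate 2 a level of 3 UMIs is 2.62 CPM.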
